A study of Mus musculus with 6 samples.

Results

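The 10 genes described here were picked because their RNA was far less abundant in RNA recovered with an antibody to PABP1 than in input RNA. They were selected on the scaled signal difference of PABP1 IP minus input. They are Rif1, Tpr, Son, Nol8, Golgb1, Rock1, Hectd2, Grn, Syt10 and Gdap10. All probes that the array files name for these genes were taken, which gave 27 of 41174 probes and 10 of 27961 gene names. The label of the set speaks of mRNAs, but a RefSeq gene table lists Gdap10 as a long non-coding RNA and the other 9 as protein-coding. That difference chose the genes, so it is given below as a description, without a test.

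RNA was measured on 6 single-colour mouse arrays. In all groups the cells were grown from Dazl-GFP-V5 ES cells (V6.5-derived, C57BL/6 129SV mixed strain) that were freed of feeder cells and kept in differentiation medium for 12 days. The GFP IP (2 arrays) held RNA recovered with anti-GFP after UV crosslinking, and so with the tagged DAZL protein. The PABP1 IP (2 arrays) held RNA recovered in the same way with anti-PABP1, and the input (2 arrays) held total RNA with no antibody. The labels call the cells primordial germ cells and do not say whether the 2 replicates were separate cultures, so the errors measure only the spread between these arrays. No array of an unrelated antibody is among the 6.

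PABP1 is the main cytoplasmic poly(A)-binding protein. It coats the poly(A) tails of mRNAs, contacts the translation initiation machinery and helps to protect the tail, and an IP of it therefore recovers polyadenylated RNA that the protein has reached. RNAs without a tail, or held in the nucleus, have less contact with it. DAZL is a germ-cell RNA-binding protein that binds mainly 3′ untranslated regions and can itself contact poly(A)-binding proteins.

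Signals below are the scanner software's background-subtracted spot intensities. The 75th percentile of the probe signals was 150 and 156 on the GFP IP arrays, 102 and 142 on the PABP1 IP arrays, and 61.3 and 72.6 on the input arrays, so every comparison and every statement on overlap uses log2 signals after each array was divided by that percentile. A log2 difference of -1 is then a halving relative to the percentile. Between 41.5% and 52.6% of the spots were well above background on an array, and none was saturated. Replicate arrays correlated at 0.980 (GFP IP), 0.981 (PABP1 IP) and 0.991 (input) across kept probes. Dazl, the tagged gene, gave signals of 1380 and 2340 in the GFP IP, against 54.1 and 58.6 in input, a log2 difference of 3.80 ± 0.27 (limma, adjusted p = 0.00142). Of 11 primordial germ cell markers on the array, 10 were well above background in both inputs and Ddx4 was not. Of the other markers, 4 of 4 fibroblast, 4 of 6 cardiac, 1 of 4 neural and 0 of 6 visceral endoderm genes were well above background in both inputs. The summed scaled signal of the fibroblast markers was 44.3 and 66.5 in the GFP IP, 212 and 222 in the PABP1 IP, and 122 and 161 in input. That of the cardiac markers was 1.82 and 2.21 in the GFP IP, 4.52 and 3.56 in the PABP1 IP, and 9.34 and 9.30 in input. The germ cell markers summed to 213 and 195 in the GFP IP, 329 and 356 in the PABP1 IP, and 135 and 136 in input. The neural markers summed to 15 and 11.8 in the GFP IP, 3.58 and 2.36 in the PABP1 IP, and 4.52 and 3.44 in input. Those of visceral endoderm summed to between 0.206 and 0.479 on each array. The part of these markers in the results below was not tested.

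A probe was kept where both replicates of some group (GFP IP, PABP1 IP or input) exceeded background clearly, by the scanner software's own call. This held for 21051 probes in all and for 17 of the 27 probes of the 10 genes. Each gene had at least 1 kept probe, and Rif1, Tpr, Son, Golgb1 and Grn had several. Since a probe could be kept through the input arrays alone, the kept probes are not a sample of all 27. Of the 10 probes not kept, 7 were well above background on no array, and the signals of all 10 lay between 1.34 and 19.8. Where a single probe stands for a gene it is the kept probe with the highest mean over the 6 arrays, called the brightest probe. Errors after ± are limma's standard errors of a difference between means of 2 arrays.

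With these probes, the difference of PABP1 IP minus input ranged from -7.08 (Gdap10) to -3.72 (Hectd2), with a median of -5.74, against a median of 0.13 over all 14927 genes read in this way. These are fitted values; with Gdap10, Rock1 and Hectd2, which were below background in the PABP1 IP, at their bounds, the range was -6.17 to -2.48 and the median -5.54. Both PABP1 IP arrays were below both inputs for 10 of 10 genes, as the choice of genes fixes (35.2% of all genes). GFP IP minus input ranged from -4.59 (Hectd2) to -1.31 (Son) with a median of -3.41, against -0.51 over all genes, and from -3.83 to -1.31 with a median of -3.16 when Hectd2, below background in the GFP IP, stands at its bound. Both GFP IP arrays were below both inputs for 10 of 10 genes (55.9% of all genes). All 10 fell in the GFP IP against input by limma at an adjusted p under 0.05, where 36.0% of all genes fell. The probe of Hectd2 was kept through the inputs alone and so had to be lower in the IPs, which leaves 9 genes. The 2 IPs were compared for 9 genes, because Hectd2 was below background in both. In that comparison all 9 differences were positive, from 1.65 to 4.41 with a median of 2.17 when Rock1 and Gdap10 stand at their bounds, limma called 7 higher and 0 lower in the GFP IP, and Golgb1 and Syt10 did not pass (22.0% of all genes were higher and 41.0% lower). Both GFP IP arrays were above both PABP1 IP arrays for 9 of 9 genes (28.3% of all genes). GFP IP minus input shares the input arrays with the difference used to choose the genes, and GFP IP minus PABP1 IP shares its PABP1 arrays, so neither is independent of the choice. In these bulk samples, recovery of an RNA from fewer cells and recovery of less of it per cell cannot be told apart.

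**Figure D1:**
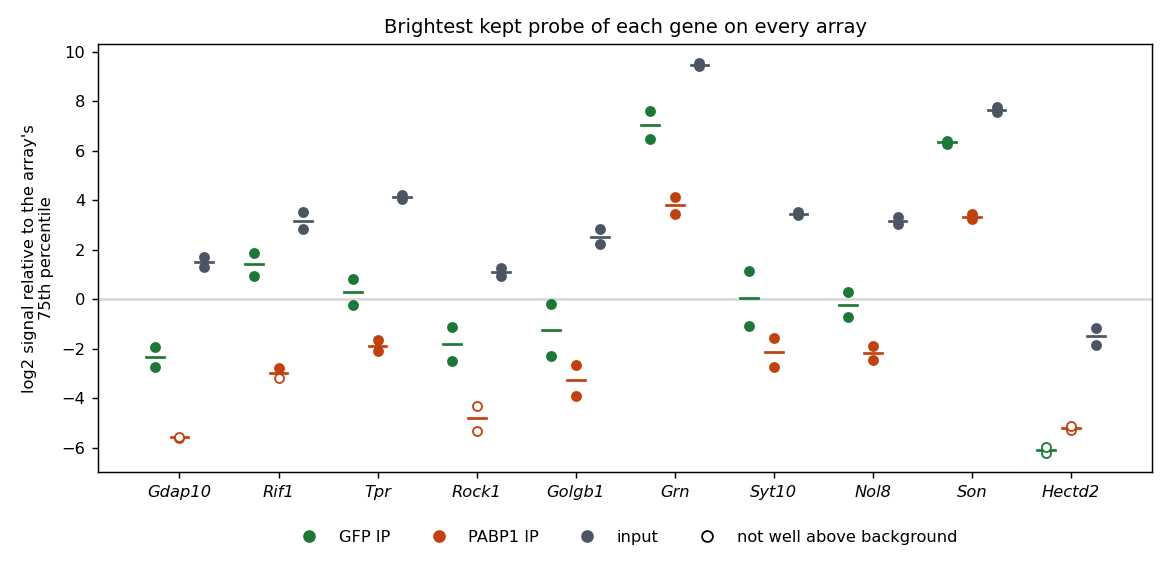
Log2 signal relative to the 75th percentile of the array (vertical axis) for the brightest kept probe of each gene, ordered along the horizontal axis by PABP1 IP minus input. Points are single arrays and bars are means of the 2 arrays of GFP IP, PABP1 IP and input, from left to right within a gene. Open points were not well above background. All GFP IP points lie below the input points of the same gene, and for 9 genes the GFP IP points lie above the PABP1 IP points. For Hectd2 all 4 IP points are open.

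Rif1, on chromosome 2 in the authors' deposited table, encodes a nuclear protein that acts in DNA break repair and in the timing of DNA replication. Its brightest probe (A_51_P439711) read 289 and 575 in the GFP IP, 11.1 and 20.6 in the PABP1 IP, and 433 and 847 in input, and the PABP1 signal of 11.1 was not well above background. The groups did not overlap. The PABP1 IP stood at the bottom, and the GFP IP was much nearer to input than to the PABP1 IP. PABP1 IP minus input was -6.17 ± 0.41, which ranked 22nd from the lowest of the 21051 kept probes. GFP IP minus input was -1.77 ± 0.41 (limma, adjusted p = 0.0179), and GFP IP minus PABP1 IP was 4.41 ± 0.41 (adjusted p = 0.00078), the largest such difference among the 9 genes compared. The second Rif1 probe (A_51_P305693) read 392 and 460 in the GFP IP, 47.5 and 91.9 in the PABP1 IP, and 80.7 and 95.1 in input. At this probe the GFP IP was highest. It was above input by 1.08 ± 0.22 (limma, adjusted p = 0.0112) and above the PABP1 IP by 2.34 ± 0.22 (adjusted p = 0.00076), while PABP1 IP minus input was only -1.26 ± 0.22. The 2 probes, which the files assign to the same transcript record, thus gave opposite directions for the GFP IP against input.

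Tpr, on chromosome 1, encodes the filament protein of the nuclear pore basket. Its brightest probe (A_51_P221802) read 128 and 276 in the GFP IP, 23.9 and 45.0 in the PABP1 IP, and 1020 and 1330 in input. The groups were well apart, with the GFP IP in between. The level in the PABP1 IP was 64.1-fold below input (-6.00 ± 0.38). GFP IP minus input was -3.83 ± 0.38 (limma, adjusted p = 0.00214) and GFP IP minus PABP1 IP was 2.17 ± 0.38 (adjusted p = 0.00526). The second probe (A_52_P640444) read 189 and 58.9 in the GFP IP, 13.3 and 96.3 in the PABP1 IP, and 54.3 and 84.5 in input. Its replicates disagreed within both IPs, and none of its comparisons with a test passed. GFP IP minus input was -0.56 ± 0.92 (limma, adjusted p = 0.627) and GFP IP minus PABP1 IP was 1.21 ± 0.92 (adjusted p = 0.289).

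Son, on chromosome 16, encodes a large protein of nuclear speckles that acts in splicing. Its brightest probe (A_52_P54008) was among the strongest on the arrays, at the 98.3 percentile of input level over kept probes. It read 12600 and 12200 in the GFP IP, 1110 and 1340 in the PABP1 IP, and 13200 and 13600 in input. The raw GFP IP and input signals were close, and they separated once the brighter GFP arrays were scaled. The difference from input was -4.31 ± 0.18 for the PABP1 IP and -1.31 ± 0.18 for the GFP IP (limma, adjusted p = 0.00373). Between the IPs the difference was 3.0 ± 0.18 (limma, adjusted p = 0.000536).

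The other Son probes gave smaller differences. Probe A_51_P142653 read 1170 and 1620 in the GFP IP, 509 and 568 in the PABP1 IP, and 658 and 768 in input. There the PABP1 IP differed from input by -1.25 ± 0.22, and the GFP IP, at -0.24 ± 0.22, did not pass (limma, adjusted p = 0.379). The GFP IP was above the PABP1 IP by 1.01 ± 0.22 at that probe (limma, adjusted p = 0.0111). Probe A_51_P148264 read 47.5 and 44.7 in the GFP IP, 11.7 and 16.6 in the PABP1 IP, and 12.2 and 8.22 in input, and neither input signal was well above background. This probe was kept through the GFP IP alone, so it had to be higher there, and the bound of at least 2.01-fold above input is a description. The PABP1 IP and input overlapped. This was the only kept probe of the 10 genes at which those groups overlapped. The fourth probe was well above background nowhere.

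Nol8, on chromosome 13, encodes a nucleolar protein. Its brightest probe (A_51_P366277) read 90.5 and 190 in the GFP IP, 18.7 and 38.2 in the PABP1 IP, and 508 and 722 in input. The order was the same as for Tpr, with no overlap. The PABP1 IP level was 40.9-fold lower than input (-5.35 ± 0.39). Against input the GFP IP gave -3.40 ± 0.39 (limma, adjusted p = 0.00267) and GFP IP minus PABP1 IP was 1.95 ± 0.39 (adjusted p = 0.00846). The other Nol8 probe was well above background on 1 array only, the second input, at 9.66.

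Golgb1, on chromosome 16, encodes giantin, a large golgin that tethers membranes at the Golgi. It had 6 probes, of which 3 were kept. The brightest (A_51_P383599) read 30.6 and 136 in the GFP IP, 16.4 and 9.57 in the PABP1 IP, and 286 and 514 in input. The GFP IP replicates were far apart, though both stayed between the other groups. PABP1 IP minus input was -5.79 ± 0.78, GFP IP minus input was -3.77 ± 0.78 (limma, adjusted p = 0.0126), and GFP IP minus PABP1 IP, at 2.02 ± 0.78, did not pass (adjusted p = 0.0701). With the slide as a block in the fit, that last difference passed (limma, adjusted p = 0.0036).

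The remaining kept Golgb1 probes were also lowest in the IPs but did not separate the IPs from each other. Probe A_52_P675052 read 2.97 and 16.8 in the GFP IP, 3.24 and 1.95 in the PABP1 IP, and 78.2 and 155 in input, and only the second GFP IP array was well above background among the IPs. It was kept through the inputs alone, so it had to be lower in the IPs. As a description, the PABP1 IP was at least 26.0-fold lower than input and the fitted GFP IP minus input was -5.16 ± 0.88. Probe A_52_P336157 read 29.3 and 34.8 in the GFP IP, 24.8 and 34.5 in the PABP1 IP, and 67.8 and 90.7 in input. It was well above background in all groups, and its differences from input were alike, at -2.49 ± 0.17 for the GFP IP (limma, adjusted p = 0.00142) and -2.27 ± 0.17 for the PABP1 IP. The IPs differed by -0.22 ± 0.17 at this probe (limma, adjusted p = 0.299).

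Rock1, on chromosome 18, encodes a kinase that acts on the actin cytoskeleton. Its only kept probe (A_52_P513358) read 26.4 and 71.7 in the GFP IP, 2.58 and 7.14 in the PABP1 IP, and 119 and 174 in input. Neither PABP1 IP signal was well above background, so the fold is a bound. The PABP1 IP was at least 33.1-fold below input, and the GFP IP was at least 4.36-fold above the PABP1 IP (limma, adjusted p = 0.00615). GFP IP minus input was -2.92 ± 0.55 (limma, adjusted p = 0.0093). Of the other Rock1 probes, A_52_P152428 was well above background on 1 GFP IP array (11.1) and 1 input array (19.8), and A_52_P119672 on none.

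Hectd2, on chromosome 19, encodes a HECT-domain ubiquitin ligase. Its kept probe (A_51_P171929) was assigned by the files to a cDNA clone and not to the RefSeq mRNA, and it read 2.03 and 2.50 in the GFP IP, 2.60 and 4.03 in the PABP1 IP, and 17.2 and 32.7 in input. No IP array was well above background, so only bounds can be given. The GFP IP was at least 6.81-fold below input and the PABP1 IP at least 5.59-fold, which is a description since the probe was kept through the inputs alone. The 2 probes assigned to the RefSeq mRNA were not well above background on any array, with signals between 1.84 and 9.11, so the values of Hectd2 rest on the clone's probe alone.

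Grn, on chromosome 11, encodes progranulin, a secreted and lysosomal glycoprotein. Its brightest probe (A_52_P508750) stood at the 99.5 percentile of input level and read 29100 and 14000 in the GFP IP, 1100 and 2520 in the PABP1 IP, and 42600 and 53700 in input. The groups did not overlap, and all signals were far above background. The PABP1 IP level was 51.8-fold lower than input (-5.70 ± 0.43). The GFP IP differed from input by -2.44 ± 0.43 (limma, adjusted p = 0.00774) and from the PABP1 IP by 3.25 ± 0.43 (adjusted p = 0.00205). The second Grn probe (A_51_P192800), assigned to the same mRNA record, read 4090 and 3580 in the GFP IP, 3260 and 4690 in the PABP1 IP, and 3000 and 3580 in input. Its raw signals were nearly level over the 6 arrays. After scaling, PABP1 IP minus input was -0.60 ± 0.17, GFP IP minus input was -0.97 ± 0.17 (limma, adjusted p = 0.00734), and GFP IP minus PABP1 IP was -0.38 ± 0.17 (adjusted p = 0.103). The pair therefore disagreed on the size of the difference from input. The brightest probe separated the 2 IPs, while at the second probe the difference between them did not pass.

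Syt10, on chromosome 15, encodes a synaptotagmin, a calcium-sensing protein of regulated exocytosis. Its kept probe (A_51_P318830) read 71.3 and 348 in the GFP IP, 34.5 and 21.3 in the PABP1 IP, and 698 and 772 in input. The GFP IP arrays were apart by several fold but overlapped neither other group. For PABP1 IP minus input the value was -5.61 ± 0.79, and GFP IP minus input was -3.42 ± 0.79 (limma, adjusted p = 0.0172). The difference between the IPs, at 2.19 ± 0.79, did not pass (limma, adjusted p = 0.0558), though it did once slide entered the fit as a block (limma, adjusted p = 0.00206). The second Syt10 probe was well above background nowhere.

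Gdap10, on chromosome 12, is the gene that the RefSeq table lists as a long non-coding RNA. Its single probe (A_51_P267587) read 22.3 and 41.6 in the GFP IP, 2.12 and 2.99 in the PABP1 IP, and 151 and 236 in input. It was well above background in the GFP IP and in input but on neither PABP1 IP array. The PABP1 IP was at least 44.5-fold below input. The GFP IP differed from input by -3.83 ± 0.32 (limma, adjusted p = 0.00167), and the GFP IP was at least 3.13-fold above the PABP1 IP (adjusted p = 0.000898).

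**Figure D2:**
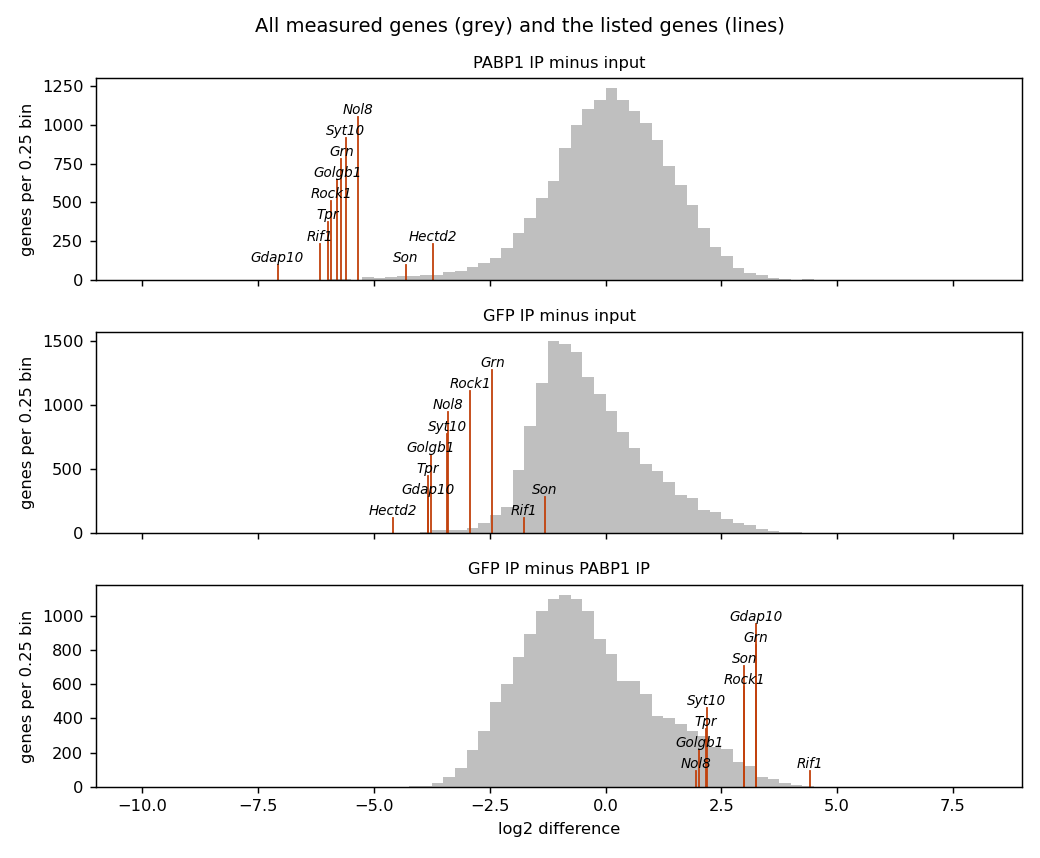
Number of genes per 0.25 bin (vertical axis) against the log2 difference (horizontal axis) for all 14927 genes read by their brightest kept probe, in grey, for PABP1 IP minus input, GFP IP minus input and GFP IP minus PABP1 IP. Red lines mark the listed genes at their own values (their heights only space the names), and Hectd2 is left out of the third panel. Son and Rif1 lie inside the bulk of genes in GFP IP minus input, at -1.31 and -1.77, while in PABP1 IP minus input the fitted values of the 10 genes lie at -3.72 or below, the values they were chosen for.

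The scaling sets where 0 lies. Scaling on 8 spike-in probes in place of the 75th percentile moved the median gene to 2.40 in PABP1 IP minus input and to 0.50 in GFP IP minus input. Relative to the median gene, the fitted values of the 10 genes lay between -7.21 and -3.85 in PABP1 IP minus input and between -4.08 and -0.80 in GFP IP minus input with the 75th percentile. With spike-in scaling these ranges were -7.20 to -3.85 and -4.09 to -0.80. Both scalings shift all probes of an array alike, so these ranges had to match apart from rounding. The calls were affected. Rif1 and Son no longer passed in GFP IP minus input (limma, adjusted p = 0.3 and 0.73), and Tpr and Nol8 no longer passed in GFP IP minus PABP1 IP (adjusted p = 0.127 and 0.258). In GFP IP minus input, Rif1 and Son also did not pass when arrays were scaled on the median of all probes (limma, adjusted p = 0.059 and 0.0681) or when the kept probes of a gene were averaged (adjusted p = 0.336 and 0.429), which left 8 of the 10 each time.

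Slide 1 held both inputs, the first PABP1 IP array and the second GFP IP array, and slide 2 held the other IP arrays. Each slide thus had 1 array per IP, and a fit on slide 1 takes its spread from the 2 inputs alone and assumes that each lone IP array varies like them. Only differences are therefore given for single slides. On slide 1 alone, GFP IP minus input lay between -4.47 and -1.30 for the 10 genes. GFP IP minus PABP1 IP lay between 2.44 and 5.08 on slide 1 for the 9 genes compared. On slide 2, which has no inputs and so allows no test, it lay between 1.17 and 3.73. The GFP IP was thus above the PABP1 IP on both slides for these 9 genes. The PABP1 IP arrays of both slides took part in the choice of the genes, so this is a description.

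Probes of the same gene disagreed, as measured by the range of their log2 differences. For PABP1 IP minus input the range over kept probes was 5.10 for Grn, 4.92 for Rif1, 4.23 for Tpr, 4.03 for Golgb1 and 3.93 for Son. The median over all 4728 genes with more than 1 kept probe was 0.91 and the 90th percentile was 2.62. This contrast chose the genes, so nothing is read from its ranges. For GFP IP minus input the range was 3.27 for Tpr, 2.85 for Rif1, 2.67 for Golgb1, 2.31 for Son and 1.47 for Grn. Over all such genes the median was 0.82 and the 90th percentile 2.29. The input arrays took part in the choice of the genes, so these ranges are a description too. Over all 17 kept probes, GFP IP minus input was negative and past the threshold for 13 and positive for 2, the dimmer Rif1 probe and the dimmest kept Son probe (limma, 32.0% and 20.9% of all kept probes). For GFP IP minus PABP1 IP limma called 10 positive and 1 negative (25.0% and 37.6% of all kept probes), the negative one being the Hectd2 probe, below background in both IPs and so not counted as measured. Of these 17, 3 were kept through a single group (a Golgb1 probe and the Hectd2 probe through input, the dimmest Son probe through the GFP IP) and so had to be higher in that group. Where along each transcript a probe lies was not analysed here.

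**Figure D3:**
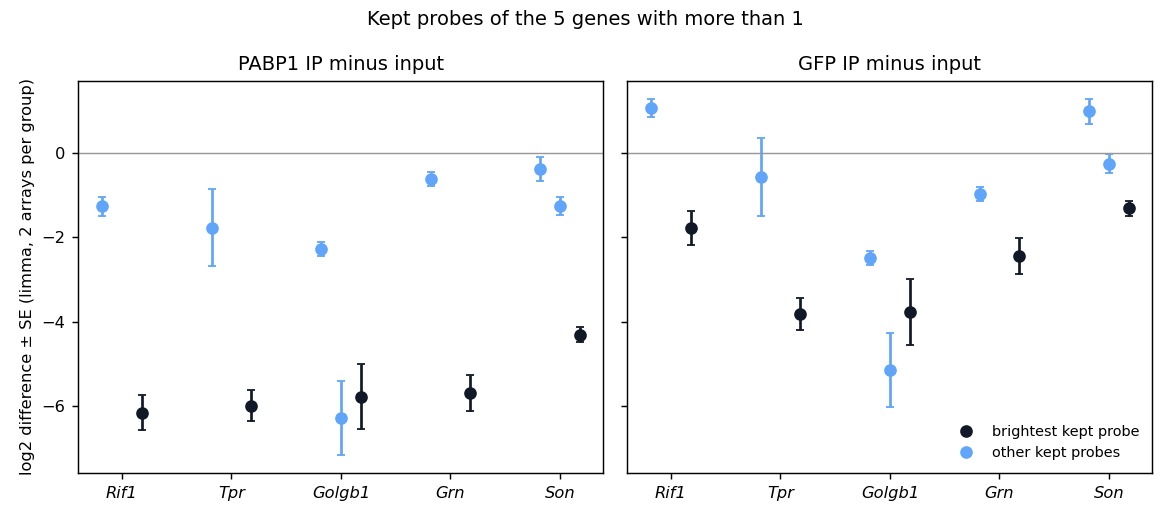
Log2 difference (vertical axis, with limma standard errors, 2 arrays per group) of each kept probe of Rif1, Tpr, Golgb1, Grn and Son, for PABP1 IP minus input on the left and GFP IP minus input on the right. Black points are the brightest probe of a gene and blue points its other kept probes. The left panel shows the difference that chose the genes and is a description. On the right the black points lie between -3.83 and -1.31, and the blue points above 0 are the dimmer Rif1 probe at 1.08 and the dimmest kept Son probe at 1.00.

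Genes outside the set were then compared in profile over the 6 arrays with the median of the 10. Only genes with an official-looking symbol were searched, so clone and predicted-gene names were left out. The nearest of them were Nemf, Snhg11, Mink1, Eif5b and Dzip3. Their distances from that median profile (Euclidean, in log2 units after subtracting the input mean) were 1.02, 1.02, 1.25, 1.41 and 1.62, while those of the 10 genes themselves ran from 0.60 (Nol8) to 3.78 (Son). Nemf, a factor of ribosome quality control, read 199 and 458 in the GFP IP, 84.3 and 98.6 in the PABP1 IP, and 1780 and 1940 in input. Snhg11, a long non-coding small nucleolar RNA host gene, read 23.3 and 37.8 in the GFP IP, 6.98 and 8.21 in the PABP1 IP, and 128 and 168 in input. Both were lowest in the PABP1 IP and highest in input. Eif5b, a translation initiation factor that joins ribosomal subunits, had log2 differences of -4.81 for PABP1 IP minus input and -3.07 for GFP IP minus input. Mink1, a protein kinase, had -5.06 and -3.64, and Dzip3, a ubiquitin ligase, -4.93 and -2.83 for the same differences. All 5 genes were found by their likeness, so their values are a description.

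Genes related to the 10 by function were then counted, from lists that leave the 10 out. Of 199 such genes 175 were measured, and 81 were lower and 26 higher in the PABP1 IP than in input (46.3% and 14.9%, against 23.6% and 30.0% of all genes). Spike-in scaling turned this to 6 lower and 122 higher. Over all 14927 genes it gave 212 lower and 12688 higher, the background for each spike-in count of PABP1 IP minus input below. The list medians below are therefore also given relative to the median gene, which a common shift cannot move.

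Among nuclear speckle and splicing genes (list of Son), 14 of 21 were lower in the PABP1 IP than in input and 1 was higher, with a median at -1.39 relative to that of all genes; with spike-in scaling 1 was lower and 9 were higher. Srek1, a splicing regulator, read 232 and 586 in the GFP IP, 17.7 and 19.6 in the PABP1 IP, and 130 and 211 in input. Its PABP1 IP arrays were the lowest and its GFP IP and input arrays overlapped after scaling. Srek1 had a PABP1 IP minus input of -4.00 ± 0.45 (limma, adjusted p = 0.00177) and its other kept probes gave -2.18 and -0.89. Luc7l3, a splicing-associated protein, gave -3.10 ± 0.25 (limma, adjusted p = 0.000966). Tra2b, a splicing activator, was higher by 1.04 ± 0.16 (limma, adjusted p = 0.00427). Between the IPs limma called 13 of the 21 higher in the GFP IP and 0 lower (22.0% and 41.0% of all genes). At an unadjusted p under 0.05 (limma) these counts between the IPs were the same. In PABP1 IP minus input 15 were then lower and 2 higher. With spike-in scaling 3 of the 21 were higher and 5 lower, where 697 of all 14927 genes were higher and 10117 lower.

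For HECT-domain ubiquitin ligases (list of Hectd2), 15 of 21 were lower in the PABP1 IP than in input and 2 higher, with a median at -1.04 relative to that of all genes; with spike-in scaling 0 were lower and 14 higher. Ube3a, the ligase of Angelman syndrome, read 558 and 861 in the GFP IP, 35.0 and 77.2 in the PABP1 IP, and 212 and 284 in input, a PABP1 IP minus input of -3.09 ± 0.31 (limma, adjusted p = 0.00137), with -4.25 and -0.95 at its other kept probes. Nedd4, a ligase of membrane proteins, gave -2.99 ± 0.22 (limma, adjusted p = 0.000909) and -0.95 at its other kept probe. Neither passed in the GFP IP against input, at 0.30 ± 0.31 for Ube3a and -0.07 ± 0.22 for Nedd4 (limma, adjusted p = 0.441 and 0.809). Hace1, a ligase of Rac proteins, was higher in the PABP1 IP by 0.89 ± 0.27 (limma, adjusted p = 0.0367) and by 2.61 at its other kept probe. The second gene called higher, Hecw2, had both inputs below background and did not exceed their floor, so no fold is given.

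Golgins and Golgi tethers (list of Golgb1) had 8 of 15 lower in the PABP1 IP than in input and 1 higher, with a median at -1.30 relative to that of all genes; with spike-in scaling 2 were lower and 8 higher. Golga4, a golgin of the trans-Golgi, read 1970 and 2720 in the GFP IP, 308 and 437 in the PABP1 IP, and 4740 and 5160 in input. It showed the same order of groups as Golgb1. Golga4 had a PABP1 IP minus input of -4.60 ± 0.20 (limma, adjusted p = 0.000836), with -2.80 and -2.33 at its other kept probes. Trip11, a Golgi microtubule-associated protein, gave -4.25 ± 0.66 (limma, adjusted p = 0.00423), with -1.86 and -2.17 at its other kept probes. Golga7, a small partner of a palmitoyl transferase, was higher by 2.40 ± 0.15 (limma, adjusted p = 0.000836).

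Of the nucleolar and ribosome assembly genes (list of Nol8), 11 of 22 were lower in the PABP1 IP than in input and 3 higher, with a median at -0.97 relative to that of all genes; with spike-in scaling 0 were lower and 16 higher. Wdr43 gave -2.55 ± 0.22 and Heatr1 -2.50 ± 0.23 (limma, adjusted p = 0.00109 and 0.0012), both factors of the small-subunit processome, and their other kept probes gave -1.53 and -1.64. Nol7, a nucleolar protein, was higher by 1.70 ± 0.20 (limma, adjusted p = 0.00188) and by 1.37 at its other kept probe. Nol12 was higher by 0.96 ± 0.20 (limma, adjusted p = 0.0118), but its other kept probe gave -0.29. Here the GFP IP was low as well, with 16 of 22 below input and 3 above (36.0% and 18.0% of all genes), against 0 and 3 with spike-in scaling, under which 335 of the 14927 genes were below input and 4043 above.

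Nuclear pore genes (list of Tpr) split, with 12 of 29 lower and 6 higher in PABP1 IP minus input, and 11 did not pass. With spike-in scaling 0 were lower and 22 higher. Their median lay at -0.24 relative to that of all genes. Ranbp2, of the cytoplasmic filaments, and Nup210, a membrane protein of the pore, gave -2.27 ± 0.23 and -2.11 ± 0.28 (limma, adjusted p = 0.00143 and 0.00274), with -1.32 at the other kept Ranbp2 probe. Nup37 and Nup43, of the Y-shaped scaffold complex, were higher by 2.77 ± 0.18 and 2.23 ± 0.22 (limma, adjusted p = 0.000836 and 0.0013), with 2.81 at the other kept Nup43 probe. For DNA break repair and replication timing (list of Rif1) 8 of 17 were lower and 4 higher, and 0 and 11 with spike-in scaling. The median of this list lay at -0.62 relative to that of all genes. Brca2, which loads the recombinase on broken DNA, gave -2.41 ± 0.22 (limma, adjusted p = 0.00115), though its other kept probe gave 0.04. Atm, the kinase that signals DNA breaks, was at least 2.69-fold lower (limma, adjusted p = 0.00101) and its other kept probe gave -0.49. The phosphatase subunits Ppp1ca and Ppp1cc, which Rif1 protein binds, were both higher by 1.13 (limma, adjusted p = 0.00869 and 0.00597), with 1.90 at the other kept Ppp1cc probe.

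Among lysosomal genes (list of Grn) 3 of 18 were lower, 2 higher and 13 not past the threshold. With spike-in scaling 0 were lower and 18 higher. The list median lay at -0.33 relative to that of all genes. Cd63, a lysosomal membrane tetraspanin, and Npc2, a cholesterol carrier, were higher by 1.66 ± 0.17 and 1.16 ± 0.15 (limma, adjusted p = 0.00137 and 0.00262), and Npc1, a cholesterol transporter, gave -1.15 ± 0.21 (adjusted p = 0.00768). Tmem106b, a lysosomal membrane protein, gave -1.17 ± 0.27 at its brightest probe (limma, adjusted p = 0.0166), and its other kept probes gave 1.57 and 1.61. Of 16 other synaptotagmins 5 were measured and limma called 0 lower in the PABP1 IP (1 at an unadjusted p under 0.05). The median of the 5 lay at -0.21 relative to that of all genes. Syt3 was at least 2.94-fold higher (limma, adjusted p = 0.0385). Of the 3 other GDAP genes 2 were measured, with a median at 0.71 relative to that of all genes. Gdap2, the 1 called higher, had both inputs below background and did not exceed their floor, so no fold is given.

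Nuclear or imprinted non-coding RNAs, listed because of Gdap10, had 4 of 6 measured members lower in the PABP1 IP than in input by limma and 0 higher (4 and 0 at an unadjusted p under 0.05), with a median at -2.74 relative to that of all genes; with spike-in scaling 2 were lower and 2 higher. Malat1, a nuclear-retained RNA whose end is not a poly(A) tail, read 70.2 and 184 in the GFP IP, 4.27 and 5.0 in the PABP1 IP, and 1270 and 2120 in input. The PABP1 IP was at least 387-fold lower than input at this probe (limma, adjusted p = 0.000836), and the GFP IP lay between them. Its other kept probes gave -5.47 and -4.15. Mirg, an imprinted microRNA host transcript, was at least 8.23-fold lower (limma, adjusted p = 0.00252).

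**Figure D4:**
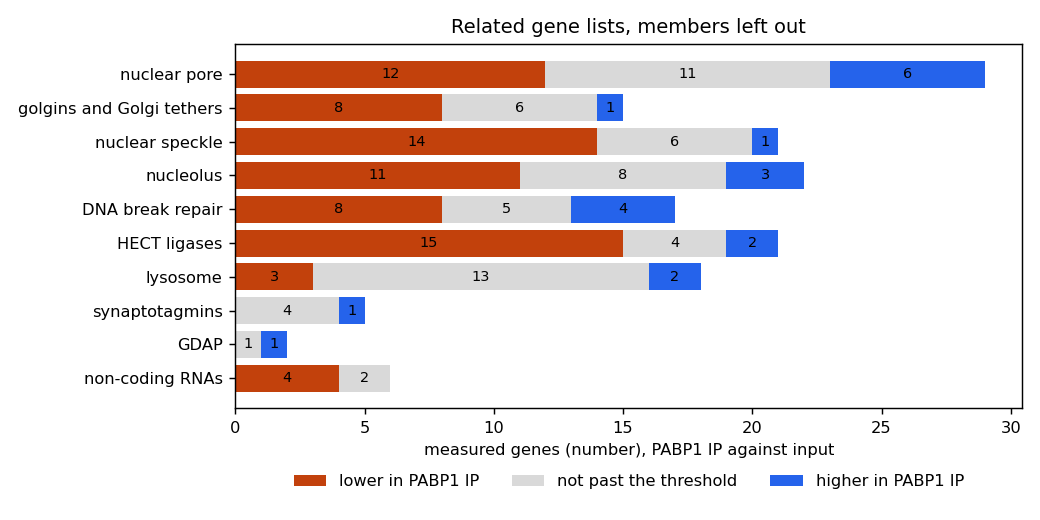
Number of measured genes (horizontal axis) in each related list described here, the 10 genes left out, that were lower in the PABP1 IP than in input (red), did not pass (grey) or were higher (blue), by limma at an adjusted p under 0.05 with 75th-percentile scaling. The speckle list has 14 lower and 1 higher, whereas the nuclear pore list has 12 and 6. With spike-in scaling the balance turns to higher for every list shown but the non-coding RNAs, which then have 2 of each. Over all 14927 genes 212 are then lower and 12688 higher.

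In the authors' deposited table, whose columns are group means scaled to the median of each array, 5 of the 27 probes could be tied to a single row through their accession. Gdap10 had means of 4.50 in the GFP IP, 1.43 in the PABP1 IP and 29.6 in input in the authors' deposited table. Hectd2 (A_51_P171929) had 1.73 in the GFP IP, 0.734 in the PABP1 IP and 7.22 in input in the authors' deposited table. The Son probe A_51_P142653 had 38.9 in the GFP IP, 24.5 in the PABP1 IP and 47.8 in input in the authors' deposited table. The PABP1 IP mean was the lowest for all 3 probes. For Hectd2 the order of the 2 IPs was opposite to that of the scaled scanner signals, which were below background in both IPs. The other 2 tied probes, of Golgb1 and Son, were not well above background on any array. Their PABP1 IP means in the authors' deposited table were above input, at 0.245 against 7.5e-05 for Golgb1 and 0.0062 against 7.5e-05 for Son.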

How the data were processed

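RNA of 3 groups of 2 samples was labelled with Cy3 and hybridised to Agilent mouse arrays, per the labels. The deposited scanner files give spot intensity from Feature Extraction 9.1.3.1, background-subtracted and not scaled between arrays, with 0 or 1 flags for background, saturation and outliers, per the file headers. The authors' deposited table holds group means and standard errors of signal, scaled to the array median in GeneSifter per the file headers, and a quality score, not used here. Genome builds are not given in the sources used here.

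Control and outlier spots were left out, spots of a probe averaged as log2 values, and the log2 75th percentile of the array subtracted. Gene names are those of the files. limma 3.58.1 in R 4.3.3 (lmFit, eBayes) fitted all 6 arrays with group as the only term, leaving 3 residual degrees of freedom. All tests were two-sided, Benjamini-Hochberg adjusted over 21051 kept probes, with a threshold of 0.05. Where the dimmer group was not well above background on any array, a fold is "at least" the ratio to its own signal or, where higher, to the faintest signal on that array that passed the background call. The steps were tested on simulated data.

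The 10 genes, the related lists and the tests were chosen with earlier results of these data known. One related list, counted in the total over lists, is not reported here. Named were the 10 genes with every probe, up to 2 genes per list and direction with the largest PABP1 IP minus input difference past the threshold and no overlap, the 5 nearest profiles, and Dazl and Pabpc1 as checks. Pabpc1 did not pass in either IP (PABP1 IP minus input -0.14 ± 0.69, limma, adjusted p = 0.876). The precision is limited by 2 arrays per group. Alternatives covered scaling, background correction, filters, the unit tested, slide, replicate number and left-out arrays.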

Additional observations from a re-analysis of the deposited data

How the results depend on the processing

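The difference of PABP1 IP minus input chose the genes, so its values under other settings are a description. Every gene of the 10 that an alternative could measure stayed below input in the PABP1 IP, over all alternatives run. Their median difference, -5.74 with the 75th percentile, was -5.55 when arrays were scaled on the median of all probes, -3.14 with normexp background correction, -3.46 with spike-in scaling, -4.34 with the mean of the kept probes of a gene, -5.53 with the slide as a block, and -5.91 to -5.60 when 1 array was left out. The 10 genes lower in the GFP IP than in input became 6 of 7, with 1 higher, over probes well above background on all 6 arrays; there Rif1 turned to 1.08 (limma, adjusted p = 0.00472), because its other probe was read. Scaling on the median of all probes, spike-in scaling and the mean of kept probes each gave 8. Leaving out 1 array gave 6 to 10; without the second input 6 passed, and Rif1, Golgb1, Rock1 and Syt10 did not (limma, adjusted p = 0.0847, 0.0632, 0.0504 and 0.0671). In such fits the lone array is assumed to vary like the other groups. The 7 genes higher in the GFP IP than in the PABP1 IP were 5 with spike-in scaling, 6 with normexp (Rock1 and Gdap10 did not pass, at limma adjusted p = 0.131 and 0.218) and 9 with the slide as a block. The 81 lower and 26 higher genes of the related lists became 6 and 122 with spike-in scaling. The median range between probes, 4.23, was 3.19 with normexp. Over all genes, GFP IP minus input gave 5371 lower and 2694 higher, against 1733 and 3605 with median scaling, 335 and 4043 with spike-in scaling, and 2383 and 1605 without the first input. PABP1 IP minus input gave 3520 and 4478, against 212 and 12688 with spike-in scaling. With the replicate number as a block the counts stayed at 10 and 7. Same-numbered IP arrays deviated in opposite directions (correlation -0.62) and lay on different slides. The crossed numbers as a block, chosen after seeing the data and fitted without the inputs, gave 9. For the IP arrays this block is the same as the slide, so it is not a separate check. The authors' table was not run as an alternative for all genes, since most accessions match several probes. Causes of these shifts were not tested, other than where stated. Signals near background, as for Hectd2, Rock1 and Gdap10 in the PABP1 IP, give bounds only.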
